A study of Rattus norvegicus with 16 samples.

Results

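The AMPA and NMDA receptor subunit genes of rat were followed through 2 assays of RNA from the dorsal horn of the spinal cord. The family was taken as 10 named genes, and the 9 of them with a row in the deposited table of an RNA immunoprecipitation (RIP) were described, out of 8671 genes in that table. These were the AMPA receptor genes Gria1, Gria2 and Gria4 and the NMDA receptor genes Grin1, Grin2a, Grin2b, Grin2c, Grin2d and Grin3a. Gria3, the remaining AMPA receptor gene, had no row and was not analysed here. Members were chosen by name and not by a measured value, but a row required enrichment in the RIP.

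One group of rats had bone cancer pain, also called cancer-induced bone pain (CIBP), and the other was described as normal and is called control here. All 16 libraries were of WT genotype, and the labels state neither strain, age, time after induction, the number of rats per sample nor whether controls had sham surgery. The first assay captured RNA carrying N4-acetylcytidine (ac4C), an acetylated cytidine made by the enzyme NAT10, with an antibody kit. It comprised 3 bone cancer pain replicates and 3 control replicates, each an immunoprecipitated (IP) library with its input, and each pair had its own peak list. The names of the bone cancer pain lists carry CFA in place of CIBP; the groups follow the sample labels. The second assay was the RIP, with 2 IP libraries and 2 input libraries, all from bone cancer pain; the labels name no protein target, and their protocol for these libraries is that of the ac4C kit. The stated aim was to relate acetylation to genes that are up-regulated in bone cancer pain by interfering with a gene written NAT0, but no library is labelled with such interference.

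Glutamate is the main excitatory transmitter between pain fibres and dorsal horn neurons. AMPA receptors are tetramers of Gria products that carry the fast current, and an edited Gria2 subunit keeps calcium out. NMDA receptors of Grin1 and Grin2 products need glycine and glutamate together and admit calcium once depolarisation lifts the magnesium block. Every NMDA receptor contains the Grin1 product, which binds glycine; Grin2 products bind glutamate and set the kinetics, and Grin3a encodes a further glycine-binding subunit. Both receptor types are known for their part in the lasting increase of dorsal horn excitability in chronic pain.

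Bone cancer pain list 1 held 50417 peaks, 49281 of them at the same fold enrichment of 10.6, while the other 5 lists held 1173 to 2416 peaks. With the authors' false discovery rate (FDR) limited to 0.05, all 6 lists held 899 to 1240 peaks, and this limit was used throughout, with the lists as deposited beside it. Fold enrichment and FDR are the authors' own values for each peak, and a peak consists of 1 or more separate blocks of sequence in their lists. Read depth is unknown for all libraries. Marker genes of the labelled tissue had rows in the RIP table, among them 8 of 10 markers of inhibitory and 6 of 12 of excitatory dorsal horn neurons, 5 of 8 general neuronal markers, all 8 astrocyte and all 9 oligodendrocyte markers. Rows were also present for 4 of 6 motor neuron, 4 of 5 oligodendrocyte precursor, 5 of 8 microglial, 3 of 6 endothelial, 4 of 5 pericyte and smooth muscle and 3 of 5 meningeal fibroblast markers. Of markers of Schwann cells and sensory ganglia 5 of 8 had a row, and of blood, muscle and bone 1 of 8. A row required enrichment in the RIP, so these counts do not measure expression in the tissue.

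Under the FDR limit, 5 of the 9 genes carried an ac4C peak in at least 1 list, namely Gria1, Gria2, Gria4, Grin1 and Grin2d. Of all genes with a row in the RIP table, 36.8% did. Gria4 and Grin1 each had them in bone cancer pain lists 2 and 3 but in no control list. Grin2d had one in bone cancer pain list 1 alone, and Gria1 and Gria2 in 1 list of each group. Presence in at least 2 lists of bone cancer pain thus held for 2 of the 9 genes and for 4% of the table's genes, and presence in at least 2 of the controls for 0 of the 9 and 3.89%. Grin2a, Grin2b, Grin2c and Grin3a had no peak within the limit. The numbers of family genes with a peak were 1, 4 and 2 in bone cancer pain lists 1, 2 and 3, against 1, 1 and 0 in control lists 1, 2 and 3, or 2.33 ± 1.53 and 0.667 ± 0.577 (SD, n = 3 lists each). Without bone cancer pain list 2 the difference of the means was 0.833, against 1.67 with all lists. The groups overlapped at 1 gene per list, and 4 of the 7 gene calls in bone cancer pain came from list 2. For comparison, 8.59%, 11.3% and 7.85% of all genes were marked in bone cancer pain lists 1, 2 and 3, and 8.23%, 9.58% and 9.31% in control lists 1, 2 and 3.

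**Figure D1:**
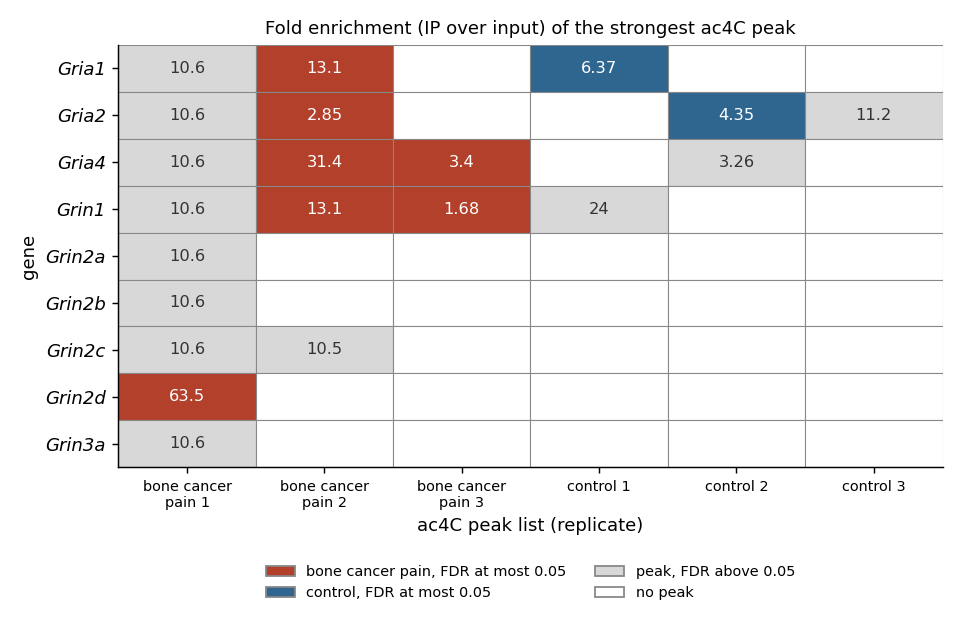
Strongest ac4C peak (by p-value) of each AMPA and NMDA receptor gene (rows) in each peak list (columns); numbers are the authors' fold enrichment, colour marks an FDR of at most 0.05, grey an FDR above 0.05 and white no peak. Gria4 and Grin1 are coloured in bone cancer pain lists 2 and 3, and grey in bone cancer pain list 1 and in 1 control list each.

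A gene was called gained when 2 or more lists of bone cancer pain, and no list of the controls, held a peak of it, and lost in the reverse case. Gria4 and Grin1 were the 2 family genes gained under the limit, and 0 were lost, where 1.80% of the table's genes were gained and 1.71% lost. Neither gain passed a test: presence in 2 lists against 0 gave a two-sided exact permutation p of 0.4 for each gene, and 1 after Benjamini-Hochberg adjustment over 3805 genes with a peak. With 3 lists against 3, p cannot go below 0.10, so 0 of these 3805 genes could be called by the adjusted exact permutation test (background 0%), and 0 had an unadjusted p under 0.05. The gain of both genes also rests on the limit and on lists 2 and 3. Without bone cancer pain list 2 or list 3 the family had 0 gained genes, and as deposited the only gained gene was Grin2c, where 11.3% of the table's genes were gained and 0.738% lost. In these bulk samples fewer cells of a type and less RNA per cell cannot be told apart, and a called peak depends on transcript level as well as on acetylation. Among the cell type markers with a row, 1 of 8 for astrocytes (Slc1a3) and 1 of 3 for endothelial cells (Flt1) were gained within the limit. Lost were 1 of 5 for neurons (Nefm) and 1 of 8 for astrocytes (Gja1). The other marker lists held 0 gained and 0 lost genes within the limit. The part of cell composition in the Gria4 and Grin1 calls was not tested.

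Among the AMPA receptor genes, Gria4, a subunit with rapid gating, had the strongest peak of bone cancer pain. It lay on the minus strand of chromosome 8 (rn6) from 1594854 to 1609311, in 3 blocks with 329 bases in all, and had a fold enrichment of 31.4 and an FDR of 1.2e-06 in list 2. Among the 1240 peaks of that list within the limit, it ranked 306 by fold and 598 by p-value. In list 3 a Gria4 peak lay elsewhere, from 2043356 to 2044687, with a fold of 3.40 and an FDR of 0.00339. These places were 434 kb apart, so the 2 lists did not mark the same part of Gria4. In control list 2 a Gria4 peak from 1594734 to 1604241 missed the limit, with a fold of 3.26 and an FDR of 0.0794. That control peak shared 31 bases with the list 2 peak of bone cancer pain, or 20.5% of its own width.

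Gria1 and Gria2, whose products form much of the AMPA receptor pool of the brain, each had a peak in 1 list of either group. The Gria1 peak of bone cancer pain list 2 (chromosome 10, plus strand, 42723296 to 42743276) had a fold of 13.1 and an FDR of 0.00324. In control list 1 the Gria1 peak (42668713 to 42673219) had a fold of 6.37 and an FDR of 1.6e-52, the smallest FDR of any family peak. The peak with the higher fold thus had the far larger FDR, and the pair lay 50.1 kb apart. Gria2 had a fold of 2.85 and an FDR of 0.00355 in bone cancer pain list 2 (chromosome 2, minus strand, 179608413 to 179610018). It had a fold of 4.35 and an FDR of 2.1e-06 in control list 2 (179648637 to 179648787). The Gria2 peaks were 38.6 kb apart, and a further Gria2 peak in control list 3 had an FDR of 0.0617.

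Grin1, the obligatory NMDA receptor gene, had peaks of low to moderate fold in bone cancer pain. Its list 2 peak (chromosome 3, minus strand, 2512297 to 2512560) had a fold of 13.1 and an FDR of 0.00324, and its list 3 peak (2534156 to 2534305) had a fold of 1.68 and an FDR of 0.00234. Of the 899 peaks of list 3 within the limit, 1.45% had a lower fold than the Grin1 peak. In control list 1 a Grin1 peak (2507105 to 2507284) had a fold of 24.0, higher than either, and an FDR of 0.0513. That peak lay just outside the limit, and with it counted Grin1 would not have been gained. The family peak nearest to the limit from inside was the Gria2 peak of bone cancer pain list 2. Along the minus strand the list 3 peak was the most 5′ of the Grin1 peaks, 21.6 kb from the list 2 peak, which was in turn 5.01 kb from the control peak.

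Grin2d, which encodes a glutamate-binding subunit with slow kinetics, had the highest fold of the family, and that in bone cancer pain list 1 alone. This peak spanned 101844907 to 101856881 on the minus strand of chromosome 1, with 4 blocks of 1912 bases in all, a fold of 63.5 and an FDR of 1.7e-07. Among the 919 peaks of bone cancer pain list 1 within the limit, it ranked 135 by fold and 449 by p-value. The median width of that list within the limit was 181 bases. The other Grin2 genes and Grin3a had a peak only above the limit. In bone cancer pain list 1 every one of the 9 genes had such peaks: 25 of the 26 family peaks of that list had the recurrent fold of 10.6 and an FDR of 0.0562, a pair of values shared by 49103 peaks of the list. As deposited, the numbers of family genes with a peak were therefore 9, 5 and 2 in bone cancer pain lists 1, 2 and 3, against 2, 2 and 1 in control lists 1, 2 and 3. The shares of the table's genes were 81.1%, 19.9% and 9.88% in bone cancer pain, against 10.5%, 15.6% and 12.6% in controls. All 9 genes then had a peak somewhere, as did 90.4% of the table. Gria1, Gria2, Gria4, Grin1 and Grin2c, or 5 of 9, had peaks in at least 2 lists of bone cancer pain (21.6% of all genes), while Gria2 alone had them in at least 2 of the controls (6.60% of all genes). Grin2c had another peak in bone cancer pain list 2, with a fold of 10.5 and an FDR of 0.127. It lay on the minus strand of chromosome 10 from 103815878 to 103816137, and its 150 bases were all inside a Grin2c peak of list 1.

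**Figure D2:**
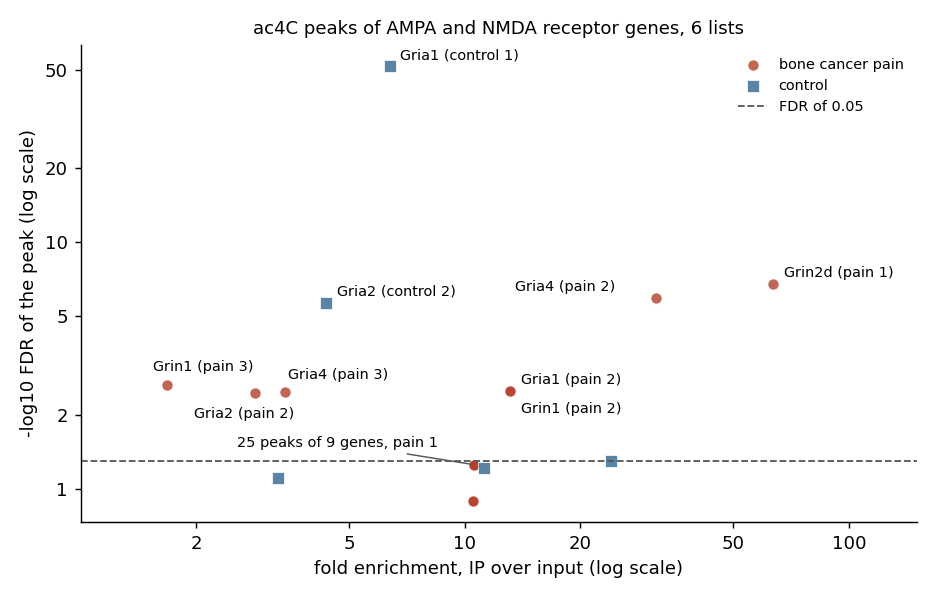
Fold enrichment (IP over input, log scale) against -log10 FDR (log scale) for all 39 ac4C peaks of the 9 genes, coloured by group; the dashed line is the FDR of 0.05 and the 9 peaks above it are named. The control 1 peak of Gria1 has the smallest FDR, and 25 peaks of bone cancer pain list 1 lie on the same point at a fold of 10.6.

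In all, the 9 genes had 39 peaks as deposited and 9 within the limit, 7 in bone cancer pain and 2 in controls. Within the limit 7 of the 9 peaks, from Gria1, Gria2, Gria4, Grin1 and Grin2d, consisted of more than 1 block. This count has no share over all peaks beside it and is not read as particular to these genes. The widths of all 9 peaks ran from 150 to 1912 bases with a median of 180. Some values were shared exactly: the Gria1 and Grin1 peaks of bone cancer pain list 2 had the same fold and p-value, as did 14 peaks of that list in total, and 17 peaks of list 1 shared the values of the Grin2d peak. The folds of the Gria1 and Grin1 peaks in that list are therefore not ranked against each other.

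No place in the family was marked in more than 1 list under the limit. Gria1, Gria2, Gria4 and Grin1 had peaks in 2 lists each, and in 0 of these 4 genes did peaks of different lists share a base on the same strand. Among the 1089 genes of the table with peaks in at least 2 lists, 330 (30.3%) shared such a base. As deposited, 3 of 5 family genes did so, Grin1 and Gria4 between a bone cancer pain list and a control list, and Grin2c between bone cancer pain lists 1 and 2. Of 3427 table genes with peaks in several lists as deposited, 38.1% did so. Requiring 50% of the shorter peak removed Gria4 and left Grin1 and Grin2c, where the share of the table's genes was 26.2%.

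Across the table, a peak within the limit was more frequent in genes with a higher input signal. Input signal here is the mean of the 2 RIP input libraries, whose unit is not stated, so a quartile can reflect transcript length as well as level. Of the genes in the lowest quartile, 22.6% had a peak within the limit in at least 1 list, then 29.4% and 40.2% in the next quartiles and 55.2% in the highest. Grin1, Gria4 and Gria2 were in the highest quartile, and all 3 had a peak. Gria1, Grin2a, Grin2b, Grin2c and Grin2d were in the second quartile, with a peak in Gria1 and Grin2d, and Grin3a was in the lowest quartile with none. As deposited the order of the quartiles was reversed, with 98.5%, 95.9%, 88.4% and 78.6% from the lowest to the highest. Within the limit, peaks in 2 or more lists of bone cancer pain were held by 8.99% of genes in the highest quartile, that of Gria4 and Grin1. In the lowest quartile they were held by 1.06%. The part of input signal in the gains was not tested.

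**Figure D3:**
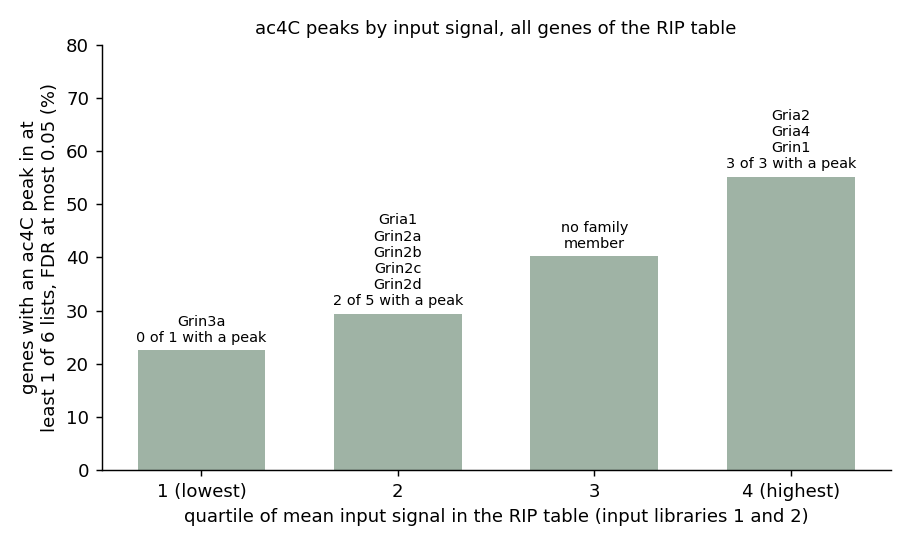
Share of all RIP-table genes with an ac4C peak in at least 1 of 6 lists (FDR at most 0.05, bars from 0) by quartile of mean input signal, with the receptor genes of each quartile written above its bar. The share is 22.6% in the lowest and 55.2% in the highest quartile, which holds Gria2, Gria4 and Grin1.

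The RIP compared IP with input for transcripts of the bone cancer pain dorsal horn, and the labels name no protein target. The table holds only genes past the authors' limit (log2 fold above 1 and p below 0.05), so all 9 family genes and 100% of the table are enriched by construction, and only sizes are described. Since the unit of the signals is not stated, and with it whether they account for transcript length, receptor genes are not ranked by signal. The quartiles of input above order genes by signal per gene.

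Of the AMPA receptor genes, Gria1 had signals of 17.7 and 17.0 in IP 1 and IP 2, against 3.30 and 2.62 in input 1 and input 2. Gria2 had 33.3 and 34.5 in the IP libraries, against 8.35 and 8.92 in the inputs. Gria4 had 43.0 and 42.3 in the IP libraries, against 9.97 and 10.2 in the inputs. The 3 genes have a row only because they were enriched, so IP above input is not particular to them. In the authors' deposited table the log2 fold was 2.55 for Gria1 (FDR 6.1e-55), 1.97 for Gria2 (FDR 7.4e-101) and 2.08 for Gria4 (FDR 2.5e-110). Gria2 and Gria4 thus stood below the table's median log2 fold of 2.40, and Gria1 above it.

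Of the NMDA receptor genes, Grin1 had signals of 59.5 and 61.1 in IP 1 and IP 2, against 10.6 and 11.0 in input 1 and input 2. Its log2 fold in the authors' deposited table was 2.48 with an FDR of 7.0e-166, and the log2 ratios of pair 1 and pair 2 were 2.48 and 2.47. Grin1 had the closest pairs of the family, 0.014 apart on the log2 scale, where the median gap over all genes was 0.25. Grin2a had 14.9 and 17.3 in the IP libraries, against 2.42 and 2.70 in the inputs. Grin2b had 14.7 and 15.4 in the IP libraries, against 3.20 and 2.31 in the inputs. Both encode the glutamate-binding subunits best known from forebrain synapses, and their log2 folds in the authors' deposited table were 2.65 for Grin2a and 2.45 for Grin2b. The pair ratios of Grin2b were 2.20 and 2.74, so its place beside Grin1 is uncertain.

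Grin2c, known for its expression in cerebellum and in astrocytes, had signals of 9.45 and 8.91 in IP 1 and IP 2, against 2.14 and 3.26 in input 1 and input 2. Its log2 ratios were 2.14 in pair 1 and 1.45 in pair 2, the widest gap of the family at 0.69, and its inputs were further apart than its IP libraries. Grin2d had 5.04 and 4.81 in the IP libraries, against 2.19 and 2.27 in the inputs. Grin2d had the lowest log2 fold of the family in the authors' deposited table, 1.14 (FDR 1.3e-12), and 0.692% of all genes in the table stood lower. Grin3a had 11.6 and 12.4 in the IP libraries, against 1.40 and 1.28 in the inputs. Grin3a had the highest log2 fold of the family in the authors' deposited table, 3.16 (FDR 3.1e-70), with 96.1% of all genes lower. With a pseudocount of 1 the log2 fold of Grin3a was 2.47, against 2.37 for Grin1.

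**Figure D4:**
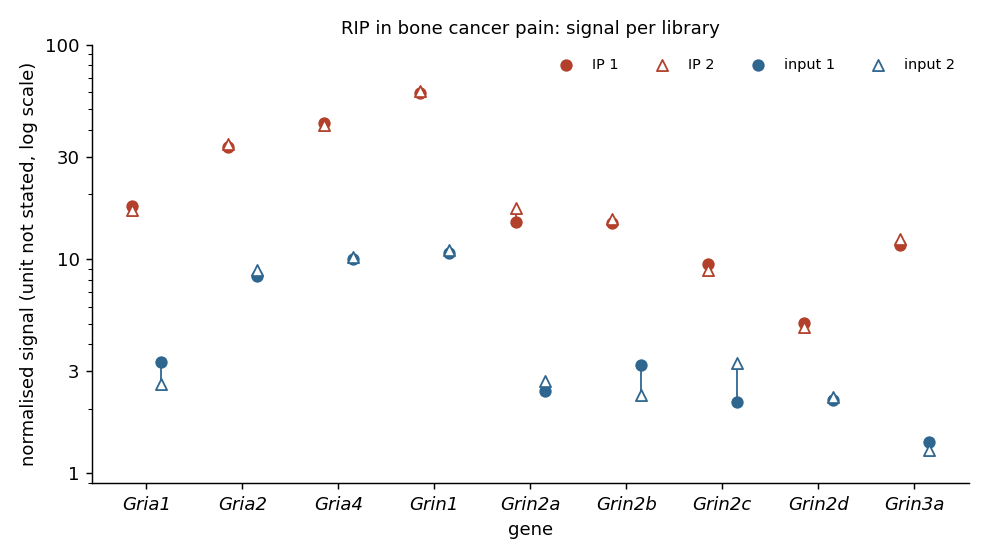
Normalised RIP signal (log scale, unit not stated) of each receptor gene in the 2 IP and 2 input libraries of bone cancer pain; circles are replicate 1 and triangles replicate 2, joined by a line. IP lies above input in both pairs of every gene, where only enriched genes have a row, and the 2 inputs differ most in Grin2c (2.14 and 3.26).

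By the authors' log2 fold the order was Grin3a, Grin2a, Gria1, Grin1, Grin2b, Gria4, Gria2, Grin2c and Grin2d. Neighbours were set apart by their pairs where the lower pair of the higher gene exceeded the higher pair of the lower gene. This held for Grin3a over Grin2a (3.05 over 2.68), for Grin2b over Gria4 (2.20 over 2.11), for Gria4 over Gria2 (2.05 over 2.00) and for Grin2c over Grin2d (1.45 over 1.20). Grin2a, Gria1, Grin1 and Grin2b overlapped each with the next, as did Gria2 and Grin2c. With 2 pairs these are descriptions without a test.

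The median enrichment of the 9 genes was close to that of the table. Their median log2 fold was 2.45, against 2.40 for all genes of the table, and 5 of 9 genes (Grin3a, Grin2a, Gria1, Grin1 and Grin2b) were above the table's median, where 50% of all genes are. In pair 1 alone the family median was 2.20 and that of all genes 2.45, while in pair 2 alone they were 2.47 and 2.37, so the sign of the difference changed between pairs. The 6 kainate and delta receptor genes with a row had a median of 3.00 and ran from 1.34 (Grik1) to 3.07 (Grik4), which overlaps the family's range of 1.14 to 3.16. Beside the ac4C calls, the gained genes Gria4 and Grin1 had log2 folds of 2.08 and 2.48 in the authors' deposited table, and the genes without a peak within the limit ran from 1.76 for Grin2c to 3.16 for Grin3a.

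**Figure D5:**
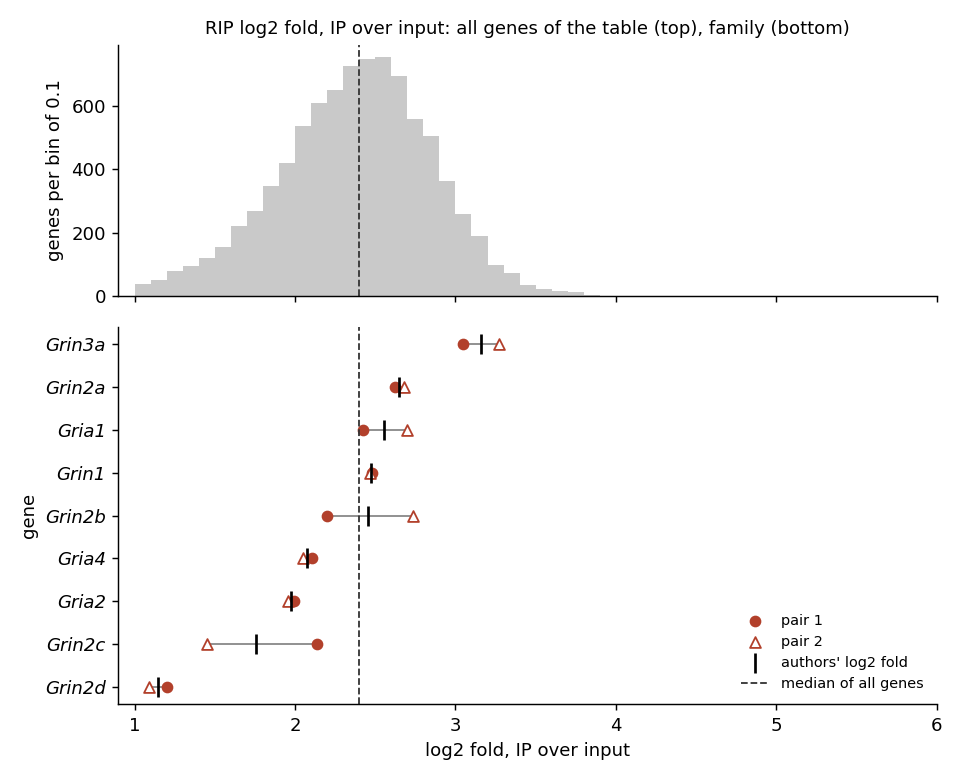
Top, number of genes per bin of RIP log2 fold (IP over input) for the 8671 genes of the table; bottom, each receptor gene with its log2 ratio in pair 1 (circle) and pair 2 (triangle) and the authors' log2 fold (bar). The dashed line is the median of all genes, 2.40; Grin2d at 1.14 and Grin3a at 3.16 are the ends of the family.

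Genes that act with these receptors were followed as 80 further genes of the RIP table in 8 lists. Within the FDR limit 2 of them were gained and 1 was lost, near the shares of all genes (1.80% gained and 1.71% lost). Fyn, a Src-family kinase that phosphorylates NMDA receptor subunits, had folds of 36.6 and 8.83 in bone cancer pain lists 2 and 3. Slc1a3, a glial glutamate transporter, had folds of 31.4 and 3.31 in bone cancer pain lists 2 and 3. Ppp3ca, the catalytic subunit of calcineurin, had folds of 14.6 and 1.52 in control lists 2 and 3. Fyn and Slc1a3 thus had peaks in the same bone cancer pain lists as Gria4 and Grin1, and these 3 calls stood as deposited too. The kainate and delta subunits (6 genes), AMPA receptor auxiliary subunits (12), NMDA receptor auxiliary and coagonist genes (5), anchoring and trafficking genes (17), metabotropic glutamate receptors and Homer genes (5) and editing and splicing genes (11) held 0 gained and 0 lost genes under the limit. As deposited 6 of the 80 genes were gained, against 11.3% of all genes. Grik2, Dlg3, Nptxr and Snx27 were the additional ones, each with the recurrent fold of 10.6 in bone cancer pain list 1 and an FDR above the limit in list 2.

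In the RIP the 80 genes had a median log2 fold of 2.1, and 27 of them exceeded the table's median of 2.40. Auxiliary subunits of AMPA receptors, which steer their trafficking and gating, had a median of 1.86 with 0 of 12 above 2.40, from 1.41 for Cacng7 to 2.31 for Frrs1l in the authors' deposited table. Anchoring and trafficking genes had a median of 2.03, from 1.03 for Lrrtm2 to 3.01 for Myo5a. Kinases and signalling genes (15) had 2.08, with 2.86 for Rasgrf1. NMDA receptor auxiliary and coagonist genes had 2.26, from 1.21 for Neto1 to 2.81 for Dao, and editing and splicing genes had 2.15, from 1.41 for Nova2 to 2.53 for Adar. Higher medians were found for glutamate transport and synthesis (9 genes, 2.55, from 1.25 for Slc17a6 to 2.96 for Slc38a2) and for metabotropic receptors and Homer genes (2.85, from 1.61 for Grm4 to 3.33 for Grm3). The receptor family's median of 2.45 lay between these groups, above the median of the AMPA receptor auxiliary subunits and below that of the metabotropic receptors.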

How the data were processed

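Reads were handled with HISAT2 2.1.0, cutadapt 2.5, featureCounts 1.6.3, DESeq2 and HOMER 4.10.4 on build rn6, per the submitters' processing notes, which give no roles; the peak caller was not stated. The 6 deposited peak lists, 1 per IP and input pair, hold for each peak its blocks, the authors' fold enrichment (a ratio, IP to input), a p-value, and log10 of p and FDR, per the file headers. The deposited RIP table gave the authors' log2 fold, p-value and FDR, and a normalised signal per library, whose unit the header does not state. Files without counts leave depth unknown.

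Peaks were assigned to genes by the identifier in the list, with an FDR of at most 0.05; starts were converted to 1-based. Overlap meant at least 1 shared base within blocks on the same strand. Presence was compared with two-sided exact permutation tests adjusted over all genes with a peak. Log2 ratios per pair were computed from the signals without a pseudocount. Python 3.11.15, pandas 2.3.3 and scipy 1.17.1 were used, and functions were tested on simulated lists. All members were named; of the receptor-related lists, every gene gained or lost within the limit and the genes with the highest and lowest log2 fold were, except for an item that is not reported here. Genes gained as deposited only, and the marker genes gained or lost within the limit, were named after their values were seen; other markers are given as counts of rows. Members, gene lists and the FDR limit were chosen with earlier results of these data known. Alternatives were other FDR limits, equal list lengths, omitted lists, stricter overlap, pseudocounts and single RIP pairs.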

Additional observations from a re-analysis of the deposited data

How the results depend on the processing

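The gains of Gria4 and Grin1 held at an FDR of at most 0.01, at equal list lengths (899 peaks) and without the commonest fold of each list. The FDR of 0.01 and the omitted fold removed no peak of either gene within the limit, so these settings could not have changed the calls. Equal list lengths left bone cancer pain list 3, the shortest, unchanged. In bone cancer pain list 2 the Grin1 peak ranked 882 by p-value, just inside the 899 kept, and the Gria4 peak 598. Leaving out single lists gave 0 to 2 gained genes, with 0 lost throughout. A gain needed 2 lists, and both genes had peaks in bone cancer pain lists 2 and 3 alone. Leaving out either of these therefore removed the gains by definition. As deposited 1 gene (Grin2c) was gained, and 0 were at an FDR of at most 0.1 or as deposited without the commonest fold, both chosen after seeing the data. The mean difference in family genes per list was 1.67, against 3.67 as deposited, 3.33 at an FDR of at most 0.1, 1 as deposited without the commonest fold and 1.33 at equal list lengths. Leaving out single lists gave 0.833 (without bone cancer pain list 2) to 2.33 (without bone cancer pain list 1). Shared places went to 3 genes as deposited. With the replicate number as a block the smallest possible exact permutation p was 0.25. Presence of a peak, less the gene's mean over its group, was correlated between bone cancer pain and control lists. These residuals correlated at -0.0086, 0.0036 and -0.0063 for lists of the same number, and at -0.016 to 0.023 for different numbers. Most genes had no peak in a given list, so these values cannot show whether the lists were paired. The family median minus that of all genes (0.053) ran from -0.25 to 0.097 over single RIP pairs. A pseudocount of 1 moved 7 of 9 members' log2 folds by more than the SD between pairs. Unknown read depth limits every peak call.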
